A study of Mus musculus with 8 samples.

Results

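The nuclear genes of oxidative phosphorylation were compared in common DC progenitors (CDPs) from the bone marrow (BM) of mice on a high fat diet (HFD) and of chow-fed (CF) controls. They were chosen by symbol, as protein-coding genes outside the mitochondrial chromosome named Ndufa, Ndufb, Ndufc, Ndufs or Ndufv (complex I), Sdha to Sdhd (complex II), Uqcr (complex III), Cox4 to Cox8 (complex IV) and Atp5 (complex V). Of 86 such genes in GENCODE vM21, 79 had a row among the 16119 genes of the count table, and all 79 passed the filter on low counts. Ndufa4, which has a complex I name, was counted with complex IV, where its protein is found. The 7 genes without a row were Cox4i2, Cox7a1, Cox7b2, Cox8b, Cox8c, Ndufa4l2 and a further gene named Atp5o.

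The libraries were made from RNA of 50000 sorted cells each, with 4 replicates per diet. HFD mice were C57BL/6J males (C57BL/6 in the labels) with diet-induced obesity on 60 kcal% fat for up to 16 weeks. CF mice were control males of the same strain on 10 kcal% fat. The methods give 16 weeks as the age at which the animals were obtained. CDPs, which give rise to DCs, were sorted as lineage-negative cells positive for CD115 and Flt3, with intermediate c-Kit and low Sca-1. How many animals stood behind each replicate is not given in the sources used here, so the p-values measure the spread between these samples. All 10 genes listed for the progenitors and the sort (among them Kit, Flt3 and Csf1r, which encodes CD115) were in the table, with a summed level of 1478 to 1998 CPM in 7 libraries and 1025 CPM in HFD replicate 1 (CPM, a gene's counts scaled to the library's total). HFD replicate 1 had the lowest level of Flt3 (88.8 CPM, others 227 to 378 CPM), Cd34 (23.4 CPM, others 45.9 to 108 CPM), Irf8, Bcl11a, Sox4 and Myb, and lay within the range of the other libraries for Kit (45.6 CPM, others 34.2 to 53.6 CPM), Csf1r (93.6 CPM, others 79.4 to 133 CPM), Cd164 and Ly6a. The result for a gene in these bulk samples cannot tell fewer cells of a type apart from less RNA per cell.

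Oxidative phosphorylation takes place in the inner mitochondrial membrane. Complexes I and II take electrons from NADH and succinate, complex III passes them on to cytochrome c, complex IV hands them to oxygen, and complex V (ATP synthase) uses the proton gradient built on the way to make ATP. Most of their subunits are encoded in the nucleus, and a smaller number in the mitochondrial genome, so that both genomes contribute to the same enzymes. In DCs and their progenitors, the pathway is known as a main source of ATP before activation shifts cells towards glycolysis.

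Total counts ranged from 28203651 to 48409689 per library, and the members took 53461 to 89910 of them. Levels were scaled by the TMM factors of edgeR and are given as CPM. A member had 49 to 8126 counts in a library, so that counting error was small for most of them. The members were short, with a median coding length of 423 bp and 58 of 79 under 600 bp. Per kb of exon, their median level was 11.7 CPM against 2.83 CPM for all nuclear protein-coding genes tested, and 73 of 79 lay above the latter value. Their exons were shorter (median 1675 bp, against 4508 bp), and without scaling by length the medians were 16.6 and 12.6 CPM.

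Among the complexes, the level per kb had a median of 8.30 CPM for complex I, 13.6 for complex II, 14.8 for complex III, 17.4 for complex IV and 15.6 for complex V. Cox8a, a small subunit of complex IV, stood at the top with 47.4 CPM per kb. Atp5a1 and Atp5b, the alpha and beta subunits of the catalytic head of ATP synthase, had 47.4 and 39.5 CPM per kb, and together they took 16.4% to 18.1% of the counts of all members. Ndufb2 and Atp5s, the latter known as coupling factor B, were the lowest with 1.22 and 1.25 CPM per kb. These levels depend on the exon length of the annotation, which adds up all isoforms of a gene.

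Promoters of 66 of the 79 members were found in RefSeq (GRCm38.p6), as windows of 300 bases from 250 before to 50 after a gene's start. They were searched on both strands for the letters GCGCANGCG (NRF1, a regulator of respiratory chain genes), CCGGAAG (ETS factors such as GABP) and AAGATGGC (YY1), none of which contains another. The NRF1 letters were found in 19 of 66 windows (28.8%), against 14.2% of the 9387 windows of nuclear protein-coding genes in the table and 6.41% of all 27025 windows. For ETS it was 15 of 66 (22.7%), against 19.3% and 9.16%, and for YY1 9 of 66 (13.6%), against 4.89% and 2.86%. At least 1 of the 3 was found in 36 windows and none in 30. The letters CANNTG of the E-box and TATAAA were searched as well and found in 69.7% and 7.58% of the members' windows, against 62.9% and 6.81% for the nuclear protein-coding genes and 72.2% and 14.1% of all windows. The 250 bases before the start are shown for Ndufv3 and Ndufb6, whose levels did not overlap between the diets, and for Cox6a1, a member of high level per kb. Capitals mark matches of the 3 motifs.
Ndufv3, chr17:31519865-31520114 of GRCm38.p6, + strand: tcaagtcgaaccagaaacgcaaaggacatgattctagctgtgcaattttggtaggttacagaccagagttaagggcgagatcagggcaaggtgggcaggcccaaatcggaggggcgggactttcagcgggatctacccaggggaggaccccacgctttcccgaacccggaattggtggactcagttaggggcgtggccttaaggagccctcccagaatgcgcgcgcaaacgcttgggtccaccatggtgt
Ndufb6, chr4:40279422-40279671 of GRCm38.p6, - strand: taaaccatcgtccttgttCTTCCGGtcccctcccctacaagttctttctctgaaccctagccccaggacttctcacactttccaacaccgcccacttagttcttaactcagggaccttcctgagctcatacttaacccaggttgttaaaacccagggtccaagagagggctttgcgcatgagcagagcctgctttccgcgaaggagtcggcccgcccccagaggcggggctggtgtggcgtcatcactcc
Cox6a1, chr5:115348959-115349208 of GRCm38.p6, - strand: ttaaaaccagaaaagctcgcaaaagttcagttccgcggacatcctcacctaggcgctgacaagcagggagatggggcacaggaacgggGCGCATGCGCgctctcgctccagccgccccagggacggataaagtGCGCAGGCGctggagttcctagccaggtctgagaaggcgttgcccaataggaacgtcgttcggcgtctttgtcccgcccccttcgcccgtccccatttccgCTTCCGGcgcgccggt
The window of Cox6a1 held 3 matches to the NRF1 letters (2 of them overlapping on opposite strands) and 1 to the ETS letters before its start, that of Ndufb6 held 1 to the ETS letters, and that of Ndufv3 held none. The median log2 fold change between the diets was 0.16 for the 19 members with the NRF1 letters and 0.17 for the 47 without. It was 0.20 for the 15 members with the ETS letters and 0.13 for the 51 without, and 0.13 for the 9 with the YY1 letters and 0.17 for the 57 without. No test was made of these medians.

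To ask whether the diet changed the transcripts of the pathway, HFD was compared with CF over all 15837 genes tested. No member was called in either direction at an adjusted p below 0.05 (edgeR's quasi-likelihood test with Benjamini-Hochberg adjustment), where 0.423% of all genes tested and 0.034% of the nuclear protein-coding genes tested were called. At an unadjusted p below 0.05, 3 members were higher in HFD (Ndufv3, Cox4i1 and Atp5mpl), against 3.72% of the nuclear protein-coding genes tested, and 1 was lower (Ndufs7), against 1.62%. DESeq2, used as an alternative, called 2 of 79 members, where it called 3.58% of all genes, with Ndufs7 lower (adjusted p = 0.0045) and Ndufv3 higher (adjusted p = 0.027). Every HFD replicate lay above every CF replicate for Ndufv3, Ndufb6 and Cox4i1, where 2.81% of the nuclear protein-coding genes did so, and below for Ndufs7, where 0.935% did so.

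Small differences in 1 direction were common. Of the 79 members, 68 had a log2 fold change above 0 (86.1%), where 64.7% of the nuclear protein-coding genes did. The median log2 fold change was 0.16 for the members and 0.07 for the nuclear protein-coding genes. For 73 of 79 members the log2 fold change was under 0.3 in size, and its standard error had a median of 0.15. Without HFD replicate 1, the members above 0 were 65 of 79 (82.3%, against 58.7% of the nuclear protein-coding genes) and the median was 0.12. Without HFD replicate 4, the members above 0 were 48 of 79 (60.8%, against 56.3% of the nuclear protein-coding genes) and the median was 0.04. With HFD replicates 1 and 4 and CF replicate 1 left out together, 38 of 79 were above 0 (48.1%, against 54.1% of the nuclear protein-coding genes). The members' median turned to -0.006, where that of the nuclear protein-coding genes was 0.02. Scaling by library size alone moved the median of all genes from 0.05 to 0.25, and with it the members' median to 0.36. The members above 0 were then 78 of 79 (98.7%, against 88.4% of the nuclear protein-coding genes).

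**Figure D1:**
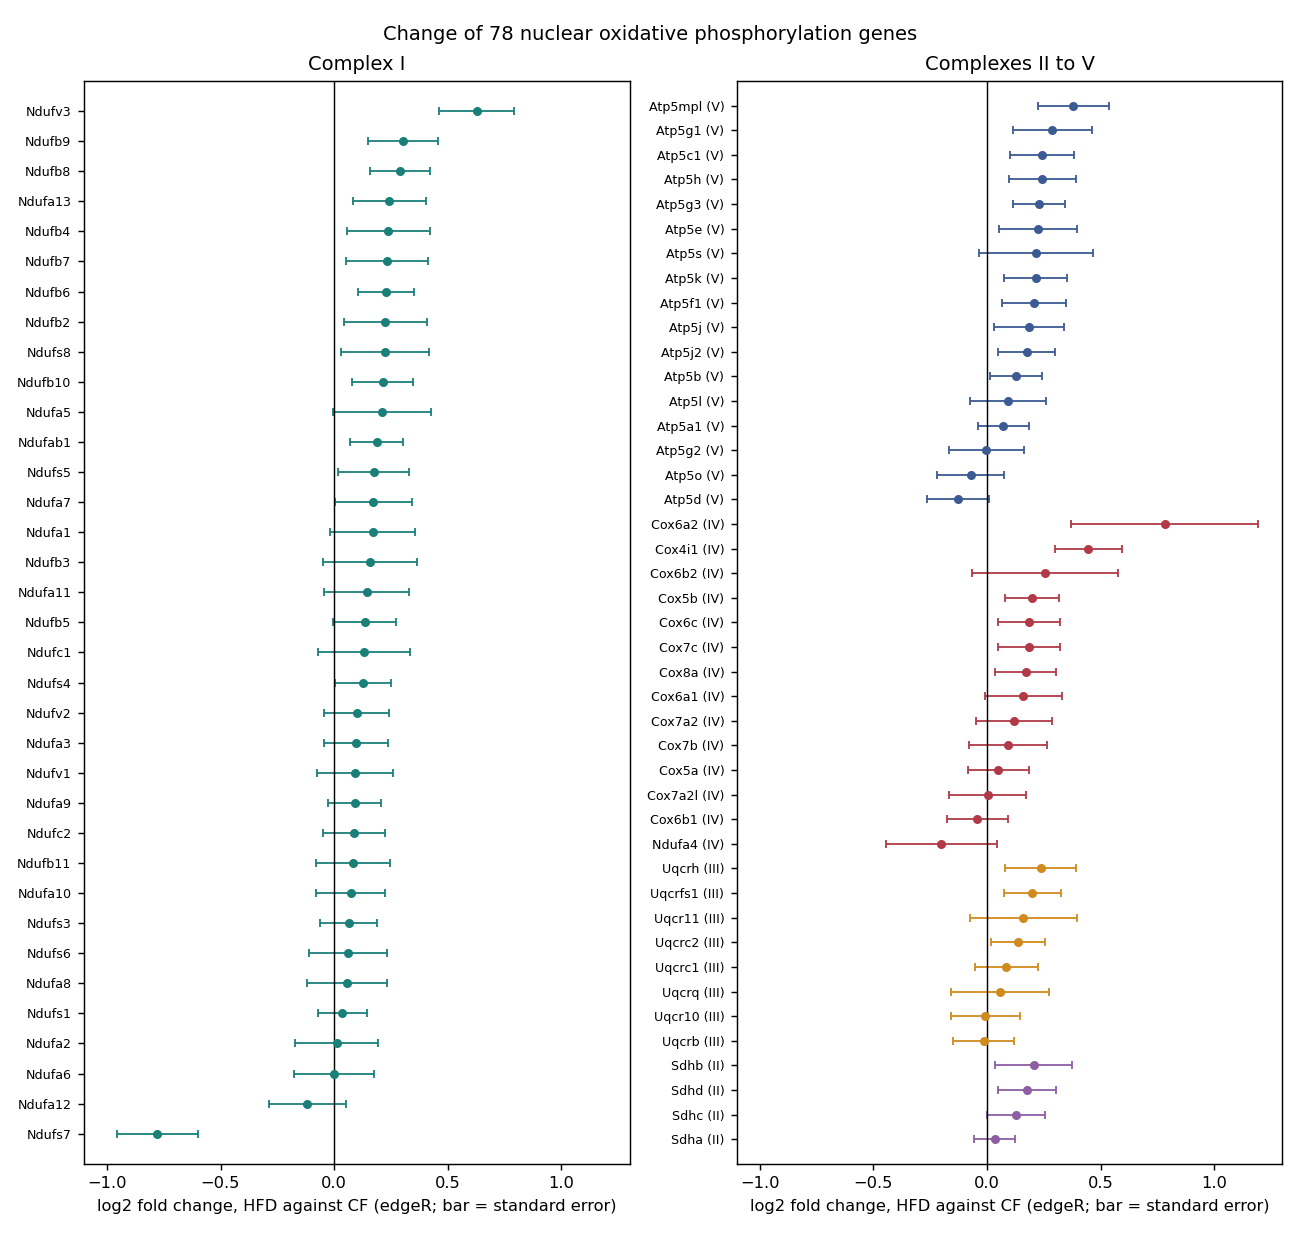
Log2 fold change (HFD against CF, x axis) with its standard error for 78 of the 79 members, coloured by complex, with complex I on the left and complexes II to V on the right. Most points lie between 0 and 0.3, and Ndufs7 on the lower side and Cox6a2, Ndufv3 and Cox4i1 on the upper side lie farthest out.

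The members were then followed library by library, as the median of their deviations from each gene's mean log2 CPM, minus the same median for the nuclear protein-coding genes. In HFD the values were 0.03, -0.09, -0.002 and 0.23 for replicates 1 to 4, and in CF they were -0.02, 0.13, -0.11 and -0.17. The diets overlapped, and the mean difference of 0.09 was smaller than the SD between replicates of 1 diet (0.13). HFD replicate 4 held the highest value of 42 of the 79 members, while CF replicate 4 held the lowest of 28 and CF replicate 3 the lowest of 21. In HFD replicate 4, 72 of 79 members lay above their own mean, and in CF replicate 2, 62 did. HFD replicate 4 also had the highest median deviation of the 8 libraries in each of the 5 complexes taken alone.

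As a share of all nuclear protein-coding counts, the members took 0.470%, 0.478%, 0.539% and 0.621% in HFD replicates 1 to 4 and 0.524%, 0.537%, 0.476% and 0.477% in CF replicates 1 to 4. The means were 0.527% ± 0.070 (SD, n = 4) in HFD and 0.503% ± 0.032 (SD, n = 4) in CF, a difference within the spread of the replicates. Without HFD replicate 4, the difference of the means went from 0.024 to -0.0078 percentage points. Over the members, the SD of log2 CPM between replicates had a median of 0.21 in HFD and 0.20 in CF, against 0.28 and 0.20 for the nuclear protein-coding genes. Without HFD replicate 1 the HFD medians were 0.215 for the members and 0.212 for the nuclear protein-coding genes.

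**Figure D2:**
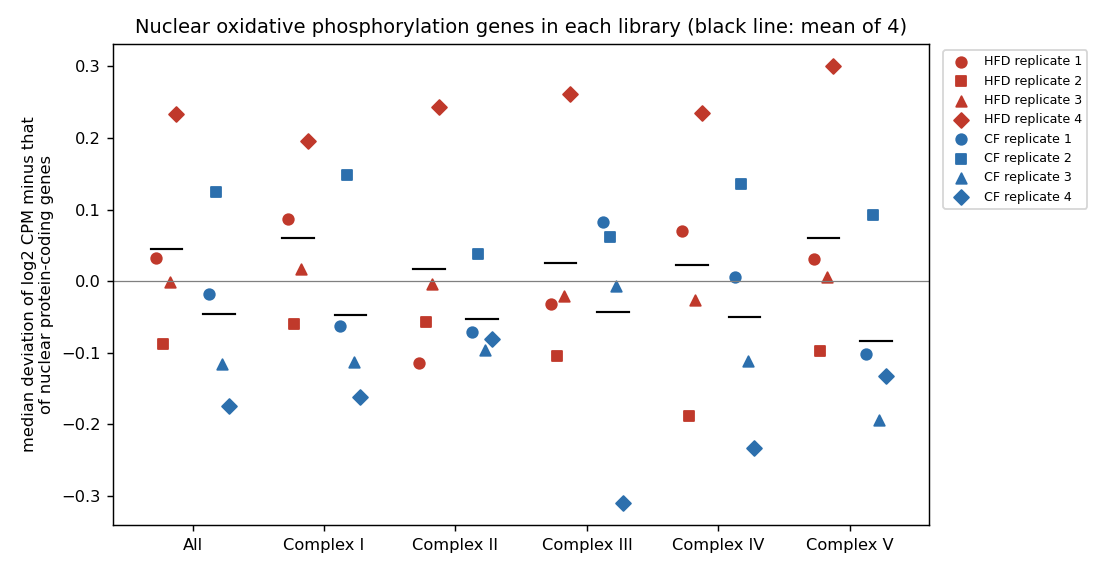
Median deviation of log2 CPM from each gene's mean, minus that of the nuclear protein-coding genes (y axis), for all members and for each complex, with a symbol for each of the 4 HFD (red) and 4 CF (blue) libraries and a line at the mean of a diet. HFD replicate 4 lies highest in every column, at 0.23 for all members, and the other 3 HFD libraries lie within the range of CF for all members and for each complex except complex II, where HFD replicate 1 lies below it.

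Markers of other cells also differed between these libraries. Summed over 15 neutrophil genes, the level was 20682, 3624, 1318 and 979 CPM in HFD replicates 1 to 4 and 2005, 6700, 6274 and 6109 CPM in CF, so that HFD replicate 4 was the lowest of all. Without HFD replicate 1, all 15 neutrophil genes had a log2 fold change below 0 (median -1.48), where 11 of 15 were above 0 with it (median 0.27). Over 10 erythroid genes, HFD replicate 1 had 831 CPM, against 130 to 189 CPM in the other HFD replicates and 120 to 204 CPM in CF. Without that library 6 of the 10 were above 0 (median 0.04), where all 10 were with it (median 0.95). B cell genes summed to 1312, 618, 664 and 470 CPM in HFD and to 322 to 558 CPM in CF, and all 10 were above 0 with HFD replicate 1 and without it (medians 0.76 and 0.57).

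Of 10 genes listed for conventional DCs, 9 had a log2 fold change below 0 (median -0.65), and 8 had without HFD replicate 1 (median -0.41). None of the 10 was called by edgeR. At an unadjusted p below 0.05 (edgeR), 3 were lower, against 1.62% of the nuclear protein-coding genes tested. The 10 genes summed to 319, 678, 945 and 807 CPM in HFD and to 880 to 1331 CPM in CF. Cd74, H2-Aa and H2-Ab1, which belong to antigen presentation on MHC class II, were lower in every HFD library than in every CF library. Of the nuclear protein-coding genes, 0.935% were so. Itgax, the listed gene above 0, had 0.54 ± 0.27 (SE), and Flt3 had -0.08 ± 0.37 (SE). The 10 monocyte and macrophage genes in the table summed to 234 to 540 CPM in HFD and 416 to 605 CPM in CF, with 6 of the 9 tested below 0. The part of these cells in the level of the members was not tested.

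Complex I was represented by 36 genes, of which 32 had a log2 fold change above 0 (median 0.13). The 7 core subunits, which carry the flavin and the iron-sulfur clusters, had a median of 0.06 with 5 above 0, and the 29 accessory subunits a median of 0.16 with 27 above 0. Without HFD replicate 4 these medians were -0.02 and 0.07. Ndufs7, a core subunit, was the member with the lowest p. It carries the last iron-sulfur cluster of complex I, from which electrons pass to ubiquinone, and its gene lies on chromosome 10 of GRCm38 from 80249121 to 80256794 (+ strand). Its level was 19.3, 20.9, 18.3 and 24.7 CPM in HFD replicates 1 to 4, and 46.0, 38.5, 29.6 and 28.5 CPM in CF replicates 1 to 4. Thus even the highest HFD replicate lay below the lowest CF replicate. The log2 fold change was -0.78 ± 0.18 (SE), with an adjusted p of 0.12 (edgeR). Leaving out each replicate in turn gave -0.91 to -0.63, and the adjusted p ranged from 0.0045 to 0.66 over all alternatives. Ndufs7 overlapped no other gene and had no near-identical copy. None of the other 6 core subunits had an unadjusted p below 0.05.

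Ndufv3, an accessory subunit of the module that binds NADH (chromosome 17, 31520115 to 31531331, + strand), differed in the other direction. It was measured at 15.2, 12.6, 13.3 and 13.4 CPM in HFD and at 7.42, 11.1, 9.57 and 7.15 CPM in CF. The diets did not overlap, and the log2 fold change was 0.63 ± 0.16 (SE; edgeR, adjusted p = 0.17). Of its core partners in the module, Ndufv1, which binds NADH and flavin, had 0.09 ± 0.17 and Ndufv2 had 0.10 ± 0.14. Ndufb6, an accessory subunit of the membrane arm, had a narrower gap, with 7.06 to 8.13 CPM in HFD and 6.11 to 6.95 CPM in CF. The log2 fold change of Ndufb6 was 0.23 ± 0.12 (SE; edgeR, adjusted p = 0.73), and 257 of its 659 exonic bases are shared with Smim27 on the opposite strand.

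Ndufb8, another subunit of the membrane arm, had 15.5, 13.7, 15.9 and 17.3 CPM in HFD and 11.8, 15.5, 12.2 and 11.6 CPM in CF. Here CF replicate 2 lay within the range of HFD, and the log2 fold change was 0.29 ± 0.13 (SE; edgeR, adjusted p = 0.62). The members of complex I with the highest level per kb were Ndufb11 and Ndufc2, both accessory subunits of the membrane arm. Ndufb11 had 25.5 to 33.0 CPM in HFD and 23.0 to 35.2 CPM in CF, and Ndufc2 had 14.9 to 21.8 CPM and 15.2 to 17.9 CPM. Both overlapped between the diets, with log2 fold changes of 0.08 ± 0.16 and 0.09 ± 0.14 (SE) that turned negative without HFD replicate 4.

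All 4 subunits of complex II, which is also the succinate dehydrogenase of the tricarboxylic acid (TCA) cycle, overlapped between the diets. Sdha, the flavin subunit that oxidizes succinate, had 62.0 to 71.5 CPM in HFD and 60.9 to 66.1 CPM in CF, and its log2 fold change of 0.03 ± 0.09 (SE) had the smallest error of all members. Sdhb, the iron-sulfur subunit, had 0.20 ± 0.17. The membrane anchors Sdhc and Sdhd had 0.13 ± 0.13 and 0.18 ± 0.13. Without HFD replicate 4, Sdha and Sdhc turned to -0.06 and -0.03, so no direction can be given for them.

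Complex III was represented by 8 genes, of which 6 had a log2 fold change above 0, with a range from -0.02 to 0.24. Uqcrfs1, the Rieske iron-sulfur protein, had 24.3, 23.5, 24.1 and 30.3 CPM in HFD and 22.6, 23.8, 23.8 and 18.9 CPM in CF. Its log2 fold change was 0.20 ± 0.13 (SE; edgeR, adjusted p = 0.78), with HFD replicate 4 apart from the other 3. The core protein Uqcrc2 showed the same library apart, with 29.4 to 30.6 CPM in HFD replicates 1 to 3, 38.7 CPM in HFD replicate 4 and 27.2 to 32.4 CPM in CF. Its log2 fold change of 0.14 ± 0.12 went to -0.00090 without HFD replicate 4. Uqcrh, the hinge protein at cytochrome c1, had 0.24 ± 0.16, while the small subunits Uqcr10 and Uqcrb, which had the highest levels per kb in this complex, had -0.008 ± 0.15 and -0.02 ± 0.13 and changed sign with the scaling by library size alone.

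In complex IV, 12 of 14 genes had a log2 fold change above 0 (median 0.17). Cox4i1, the ubiquitous form of the largest nuclear subunit (chromosome 8, 120668222 to 120674207, + strand), had 33.1, 28.1, 33.7 and 28.8 CPM in HFD and 28.1, 22.9, 17.6 and 22.2 CPM in CF. The diets did not overlap, although the lowest HFD replicate and the highest CF replicate nearly met. Its log2 fold change was 0.45 ± 0.15 (SE; edgeR, adjusted p = 0.33), and it shares 154 of 1550 exonic bases with Emc8 on the opposite strand. Cox5b, a zinc-binding subunit, had 23.3 to 27.8 CPM in HFD and 19.5 to 26.0 CPM in CF, a log2 fold change of 0.20 ± 0.12 (SE) with overlapping diets. Without HFD replicate 4 the median of the complex was 0.06. The most abundant members per kb in this complex, Cox8a and Cox6a1, overlapped as well, with 0.17 ± 0.13 and 0.16 ± 0.17.

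Cox6a2, the isoform of subunit VIa known from heart and skeletal muscle and also from plasmacytoid DCs, had the highest log2 fold change of all members and the largest spread (chromosome 7, 128205435 to 128206387, - strand). It had 4.62, 12.3, 22.6 and 20.3 CPM in HFD and 9.20, 9.41, 7.49 and 8.73 CPM in CF. HFD replicate 1 lay below every CF replicate, and the other 3 HFD replicates lay above every CF replicate. The log2 fold change was 0.78 ± 0.41 (SE; edgeR, adjusted p = 0.71). Without HFD replicate 1 it was 1.08 with an adjusted p of 0.045 (edgeR), in a fit that called 1.26% of all genes, and it was called under none of the other alternatives. Relative to the ubiquitous Cox6a1 and per kb of exon, the ratio of Cox6a2 to Cox6a1 was 0.16, 0.62, 0.93 and 0.73 in HFD and 0.48, 0.33, 0.33 and 0.44 in CF.

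Markers of plasmacytoid DCs were listed as well. All 9 listed genes in the table, Cox6a2 among them, had a log2 fold change above 0 (median 0.79). None was called by edgeR with all libraries, and none was at 0 CPM. Without Cox6a2, their summed level was 350, 813, 596 and 790 CPM in HFD and 452, 510, 445 and 454 CPM in CF. Runx2 and Tcf4 gave most of that sum in HFD replicate 1 (151 and 101 CPM), and their log2 fold changes were 0.26 and 0.04. Siglech, a surface receptor of plasmacytoid DCs, had 13.3, 49.5, 33.0 and 62.2 CPM in HFD and between 13.02 and 17.1 CPM in CF. Spib, a transcription factor of these cells, had 27.1, 52.7, 31.2 and 60.5 CPM in HFD and 12.9, 23.2, 16.4 and 12.3 CPM in CF, and Ccr9, a chemokine receptor, had 5.13 to 16.2 CPM and 2.02 to 4.80 CPM. In HFD replicate 1 these 2 genes lay above every CF library, Runx2 and Cd300c (2.92 CPM, against 3.04 to 4.32 CPM in CF) lay below every CF library as Cox6a2 did, and Siglech, Ly6d, Bst2 and Tcf4 lay within the range of CF. The part of these cells in the level of Cox6a2 was not tested.

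**Figure D3:**
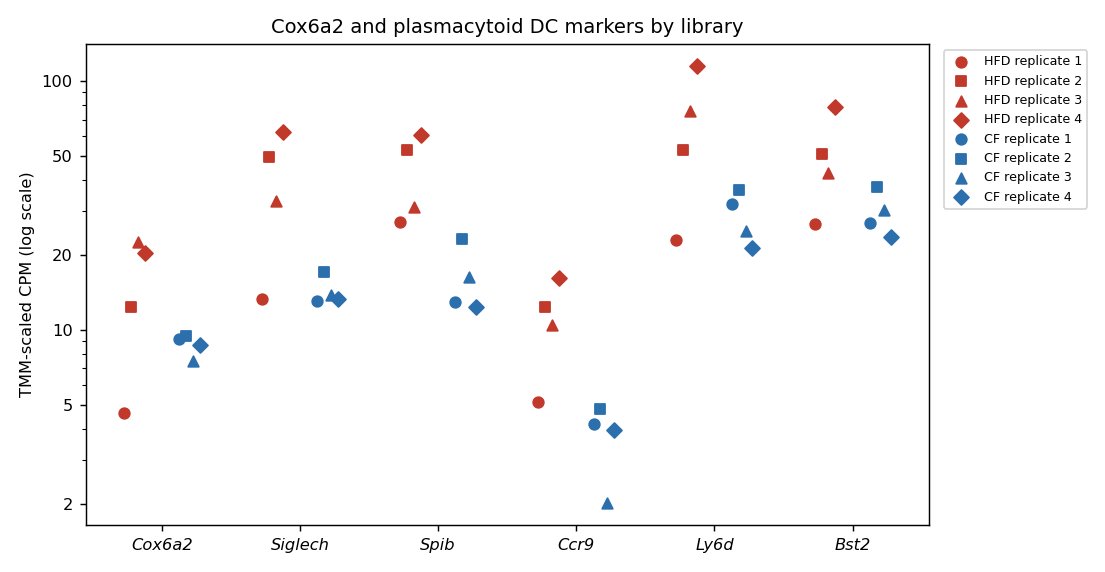
Level (TMM-scaled CPM, log scale) of Cox6a2 and of 5 plasmacytoid DC markers in each of the 4 HFD (red) and 4 CF (blue) libraries. In HFD replicate 1 (circle) each of the 6 genes has its lowest level among the HFD libraries, and Cox6a2 lies at 4.62 CPM there against 12.3 to 22.6 CPM in the other 3.

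Ndufa4, the subunit of complex IV with the complex I name, was the lowest of this complex with -0.20 ± 0.25 (SE; edgeR, adjusted p = 0.91). It had 13.9, 12.2, 15.8 and 17.2 CPM in HFD and 13.4, 14.2, 26.8 and 13.5 CPM in CF. The single high library was CF replicate 3, and without it the log2 fold change was 0.11.

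**Figure D4:**
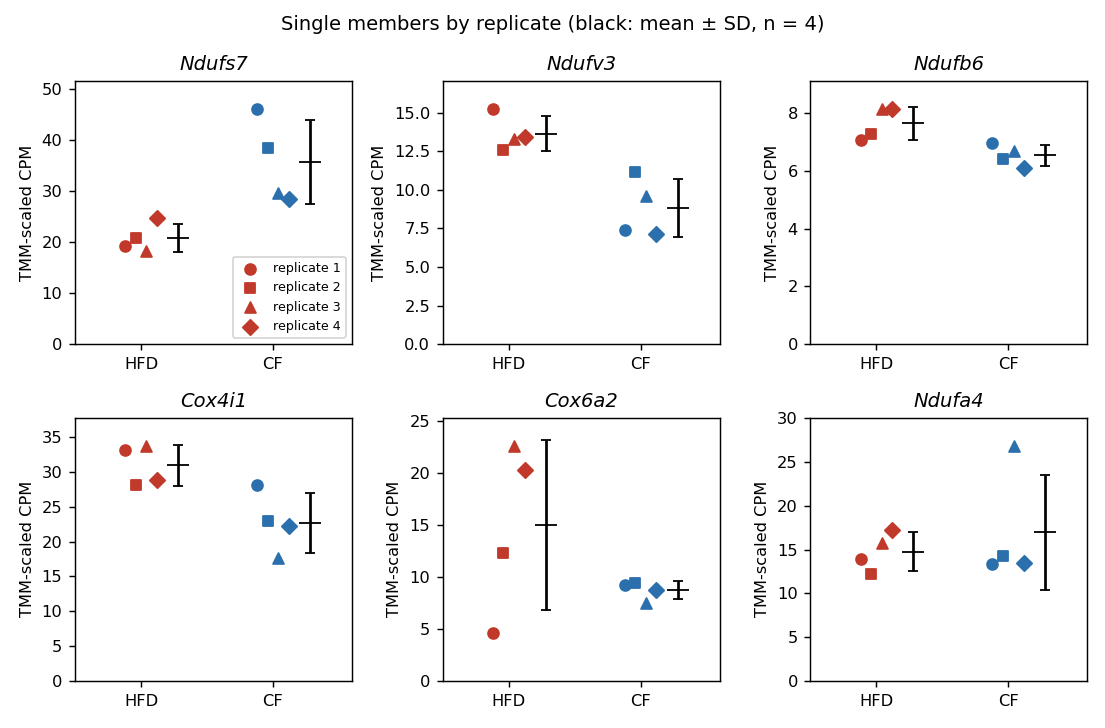
Level (TMM-scaled CPM, y axis from 0) of 6 members in each replicate of HFD (red) and CF (blue), with the mean ± SD of 4 replicates in black. Ndufs7, Ndufv3, Ndufb6 and Cox4i1 do not overlap between the diets, while Cox6a2 is spread over 4.62 to 22.6 CPM within HFD and Ndufa4 has a single high CF replicate at 26.8 CPM.

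Complex V, the ATP synthase, had 14 of 17 genes above 0 with a median of 0.21, which went to 0.04 without HFD replicate 4. The catalytic head (F1) had a median of 0.13 over 5 genes, the peripheral stalk 0.20 over 4 and the membrane part (Fo) 0.21 over 7, and without that library they had 0.02, 0.03 and 0.11. Atp5b had 175, 157, 170 and 197 CPM in HFD and 150, 177, 167 and 146 CPM in CF, which overlapped, and its log2 fold change was 0.13 ± 0.11 (SE). Atp5a1 was as even, with 134 to 175 CPM in HFD, 138 to 156 CPM in CF and 0.07 ± 0.11. Atp5c1, the gamma subunit that turns inside the head, had 0.24 ± 0.14, and Atp5g3, 1 of 3 genes for the c subunit of the rotating ring, had 0.23 ± 0.11. Atp5g1 and Atp5g2, which encode the same mature c subunit, had 0.29 ± 0.17 and -0.004 ± 0.17.

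Atp5mpl, a small proteolipid of the membrane part, was the only member of complex V with an unadjusted p below 0.05. It had 18.3, 18.8, 19.7 and 25.7 CPM in HFD and 16.3, 19.2, 13.9 and 13.9 CPM in CF, where CF replicate 2 lay within the range of HFD. The log2 fold change was 0.38 ± 0.16 (SE; edgeR, adjusted p = 0.53). The 3 members of complex V below 0 were Atp5d (-0.13 ± 0.14), the delta subunit of the head, Atp5o (-0.07 ± 0.15), the stalk subunit that confers sensitivity to oligomycin, and Atp5g2.

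The 13 subunits encoded in the mitochondrial genome differed from the nuclear ones in direction. All 13 had a log2 fold change below 0 (range -0.52 to -0.15, median -0.40), 6 of them at an unadjusted p below 0.05, where 5.34% of all genes tested were lower at that p. None was called by edgeR, while DESeq2, which called 3.58% of all genes, called 1. The lowest p belonged to mt-Nd4l, a subunit of complex I (-0.52 ± 0.15, SE; edgeR, adjusted p = 0.21), and mt-Atp8, a subunit of complex V (-0.52 ± 0.18, SE; edgeR, adjusted p = 0.36), whose reading frames overlap those of mt-Nd4 and mt-Atp6. The median was -0.29 without HFD replicate 1, and with library size alone it was -0.19 with 12 of 13 below 0. As a share of all counts they took 1.45% to 2.11% in HFD and 1.45% to 2.26% in CF, which overlapped. They gave 7.72, 11.1, 8.70 and 7.73 counts per count of the 79 nuclear members in HFD replicates 1 to 4, and 10.3, 12.5, 13.2 and 11.9 in CF replicates 1 to 4. HFD replicate 2 thus lay within the range of CF, and the other 3 HFD replicates lay below it. The means were 8.81 ± 1.58 (SD, n = 4) in HFD and 11.99 ± 1.23 (SD, n = 4) in CF.

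**Figure D5:**
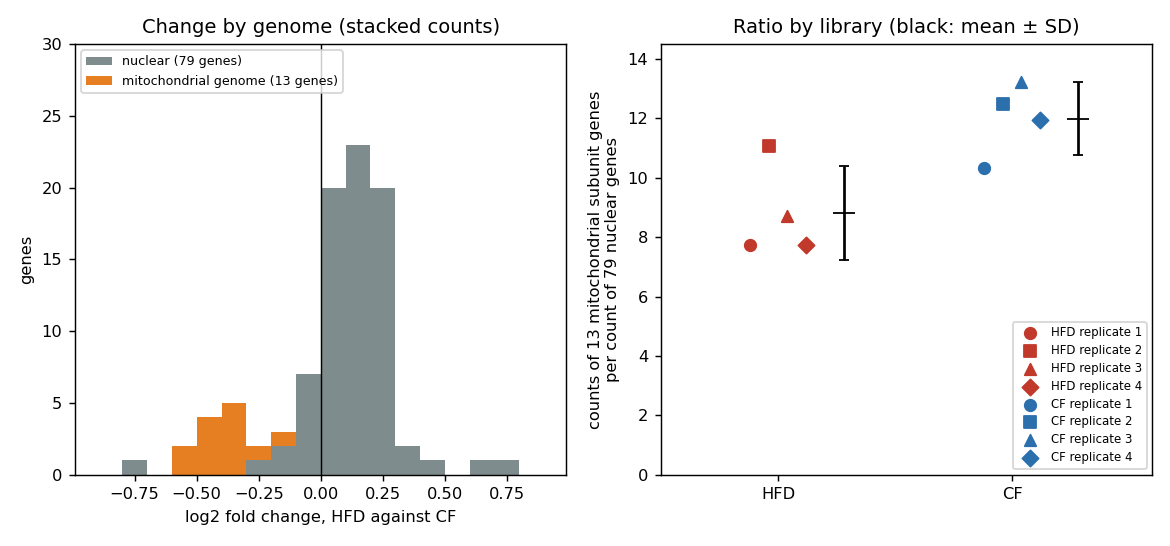
Left, stacked counts of genes by log2 fold change (HFD against CF) for the 79 nuclear members (grey) and the 13 subunits of the mitochondrial genome (orange). Right, counts of the 13 mitochondrial genes per count of the 79 nuclear genes in each library, with mean ± SD in black. All 13 mitochondrial genes lie below 0, and the ratio is 7.72 to 11.1 in HFD and 10.3 to 13.2 in CF.

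Genes that work with the complexes were compared in the same fit, and none of these lists had a called member. Of 12 electron carriers and transporters 10 were above 0 (median 0.10), and Atpif1, the inhibitor of ATP hydrolysis by complex V, had the lowest p of them with 0.35 ± 0.15 (SE). Slc25a4, an ADP/ATP carrier, followed with 0.20 ± 0.16. Of 52 assembly factors 38 were above 0 (median 0.09), with Cox15, which makes the heme of complex IV, at 0.22 ± 0.11 and Sdhaf4, an assembly factor of complex II, at 0.53 ± 0.26. These 2 had the lowest p of the list, and none of its genes had an unadjusted p below 0.05.

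Among 21 regulators of mitochondrial biogenesis in the table, 16 were above 0 (median 0.17). Mterf4, a factor of mitochondrial ribosome assembly, had 3.74 to 5.71 CPM in HFD and 2.55 to 3.59 CPM in CF, with no overlap and a log2 fold change of 0.56 ± 0.20 (SE; edgeR, adjusted p = 0.38). Nrf1, which encodes the factor whose letters were searched in the promoters, had 12.6 to 20.2 CPM in HFD and 18.1 to 26.7 CPM in CF, with -0.45 ± 0.18 (SE; edgeR, adjusted p = 0.51). Of 18 genes of the TCA cycle and pyruvate dehydrogenase 17 were above 0 (median 0.08). Without HFD replicate 4 the medians were -0.0066 for the TCA cycle list, 0.02 for the electron carriers, 0.0067 for the assembly factors and 0.14 for the regulators. Idh3a, a subunit of the NAD-dependent isocitrate dehydrogenase, had 22.5 to 29.8 CPM in HFD and 19.2 to 21.6 CPM in CF, with 0.28 ± 0.12 (SE; edgeR, adjusted p = 0.53), and Dld, the dehydrogenase shared with the pyruvate complex, had 0.18 ± 0.14.

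Counts of short, conserved genes such as these can be shared with copies elsewhere. Genes with 90% identity over 80% of the coding sequence existed for 33 of 79 members, and 22 such copies of 16 members had rows of their own, at 3.51% to 28.1% of the parent's counts. The 46 members without a copy had a median log2 fold change of 0.13 with 41 above 0, and the 33 with a copy 0.16 with 27 above 0. Exons of 29 members overlapped those of another gene, 26 of them on the opposite strand, and whether counting used the strand is not given in the sources used here. Ndufs7, Ndufv3, Cox4i1, Atp5mpl and Cox6a2 had no near-identical copy.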

How the data were processed

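RNA of CDPs was measured in 8 libraries. The authors deposited a table of raw counts per gene, made by trimming with cutadapt, HISAT2 alignment to GRCm38 and StringTie counting of uniquely mapped pairs on GENCODE comprehensive. Versions and the strandedness of counting are not given in the sources used here. Its columns were matched to replicates by the sample number in the labels.

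By their Ensembl identifiers, 16067 of 16119 genes were found in GENCODE vM21, which gave names, coordinates and exon lengths. The R package edgeR 4.0.16 (R 4.3.3) was used. Its filterByExpr left out 282 genes, TMM scaled the libraries, and HFD was set against CF in a robust quasi-likelihood model that held the diet alone. The p-values of all 15837 remaining genes were adjusted together after Benjamini-Hochberg, with calls made below 0.05. Printed CPM are counts divided by the TMM-scaled library size, and deviations used log2 CPM with a prior count of 2. The steps were tested on simulated data.

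The members and gene lists were chosen with earlier results of these data known. Members named are those called by a fit, the 3 with the lowest p and the 2 with the highest level per kb of each complex and the 2 at each end of the log2 fold changes. The 2 genes with the lowest p are also named for the lists of mitochondrial genome subunits, electron carriers, assembly factors, regulators and the TCA cycle. Added with their values known were Ndufb6, Ndufv1, Ndufv2, Ndufb2, Ndufs3, Atp5s, Atp5d, Atp5o, Atp5g1, Atp5g2 and Atp5l, and the cell and sort markers given by name. The values of 1 member are not reported here by name.

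The fit was repeated with DESeq2 1.42.0, voom of limma 3.58.1, RLE factors, library size alone, a linear model on log2(CPM + 1), no filter, 1 CPM or more in 4 libraries, nuclear protein-coding genes alone, a block for the replicate number, and without each replicate in turn. Leaving out HFD replicates 1 and 4 and CF replicate 1 together was chosen after seeing the data. Near-identical copies were found with BLAST+ 2.17.0. Python 3.11.15 with matplotlib 3.10.9 drew the figures.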

Additional observations from a re-analysis of the deposited data

Results flagged for a closer look

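Of the groups of 4 replicates, 66 were looked at, which did not cover every member. In 5 of these groups a single replicate lay far from the other 3, where chance gives about 1 in 20. These were Ndufa4 in CF replicate 3 (26.8 CPM, others 13.4 to 14.2), Ndufb11 in CF replicate 2 (35.2 CPM, others 23.0 to 23.8), Ndufb8 in CF replicate 2 (15.5 CPM, others 11.6 to 12.2), Uqcrc2 in HFD replicate 4 (38.7 CPM, others 29.4 to 30.6) and Uqcrfs1 in HFD replicate 4 (30.3 CPM, others 23.5 to 24.3). Members outside these groups stood apart as well. In CF replicate 2, Ndufs3 had 15.2 CPM (others 12.1 to 12.6) and Atp5l had 20.7 CPM (others 14.7 to 15.6). The members above their own mean were 62 of 79 in CF replicate 2 and 72 of 79 in HFD replicate 4, against 7 to 49 of 79 in the other 6 libraries.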

How the results depend on the processing

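The median log2 fold change of the members (0.16) was 0.36 with library size alone and -0.0061 without HFD replicates 1 and 4 and CF replicate 1, where 38 of 79 members were above 0. DESeq2 called 1 member higher and 1 lower and 567 of all genes, where edgeR called 0 and 0 members and 67 of all genes. Leaving out single replicates gave 0 to 1 members called higher, the 1 being in the fit without HFD replicate 1, which called 200 of all genes. In these fits the members' median was 0.04 to 0.21, with 48 to 74 members above 0, and its distance from the median of nuclear protein-coding genes was 0.01 to 0.13 (0.09 with all libraries). No pairing by replicate number was seen, as deviations of same-numbered libraries correlated across genes at -0.44, -0.08, -0.23 and -0.18. These deviations were taken from the mean of each diet, so they cannot exclude that samples were handled in pairs. With the replicate block, 68 members were above 0, the median was 0.15 and 0 were called.

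Among named members, Uqcr10 and Uqcrb went to 0.20 and 0.20 and Ndufa4 to 0.0031 with library size alone, Uqcr10 to 0.00031 with limma voom and Sdha to -0.0061 with nuclear protein-coding genes alone. With single replicates left out, log2 fold changes that changed sign ranged from -0.041 to 0.13 for Atp5a1, -0.33 to 0.11 for Ndufa4, -0.045 to 0.25 for Ndufb11, -0.065 to 0.16 for Ndufc2, -0.056 to 0.055 for Sdha, -0.029 to 0.18 for Sdhc, -0.16 to 0.088 for Uqcr10, -0.12 to 0.051 for Uqcrb and -0.00090 to 0.19 for Uqcrc2. Without HFD replicates 1 and 4 and CF replicate 1, Atp5a1 had -0.036, Atp5b -0.015, Cox6a1 -0.11, Ndufa4 -0.39, Ndufb11 -0.046, Ndufc2 -0.0088, Sdha -0.0061, Sdhc -0.0058 and Sdhd -0.026. Cox6a1, Atp5b and Sdhd had at most 0.30, 0.18 and 0.27 with a single replicate left out. The cause of these changes was not tested. The standard error of a member's log2 fold change, 0.09 to 0.41, sets the size of a difference that could be seen here.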
